A study of Mus musculus with 12 samples.

Results

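The later of 2 withdrawal times was compared with the earlier in mouse embryonic stem cells that depend on a doxycycline-driven Cdk13 transgene: 72 h without the drug against 48 h without it. Libraries labelled minusDox72 (4 libraries) and minusDox48 (4 libraries) had each been set by the authors against the same 4 plusDox libraries, kept in doxycycline at 1 ug/mL. The members were the gene parts of the authors' deposited DEXSeq table with a log2 fold change at both times, 41603 of 138745 parts (30.0%) in 6289 genes. A value below is the authors' log2 fold change in the use of a part over plusDox cells, and a difference is the 72 h value minus the 48 h value of the same part, computed here, in which the shared plusDox libraries largely cancel.

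All 3 groups were V6.5 cells, a line of C57Bl/6-129 hybrid background grown on gelatin with LIF, of genotype Cdk13-/-; Cdk13 Tg+. The knockout of the endogenous gene and the epitope-tagged transgene were thus shared by minusDox72, minusDox48 and plusDox cells, and the labels set the groups apart by doxycycline and the time since its removal. Clones 11-8 and 14-1, derived independently, gave 2 libraries each to every group, which the labels call biological duplicates of polyadenylated RNA. Cells lacking the transgene were not sampled off the drug, so loss of Cdk13 and loss of doxycycline cannot be told apart, nor can either be told apart from the further day of growth.

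CDK13 pairs with cyclin K to phosphorylate the repeated tail of RNA polymerase II, which couples transcription to splicing and 3′ end formation. A detained intron is an intron that stays in an otherwise spliced and polyadenylated transcript, which is usually held in the nucleus, and genes of RNA-processing factors are known to use such introns and exons with early stop codons to limit their own output. The DEXSeq model sets each part against the rest of its gene, so a higher value means a larger share of the gene's reads and not more RNA of the gene.

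The table gave fold changes and adjusted p-values but no values per library, so depth, spread between libraries and a test of 72 h against 48 h itself were not available here. Every difference below is therefore a description without a replicate error, and a call at 72 h that is missing at 48 h does not by itself show that the times differ. RNA integrity numbers averaged 9.05 ± 0.17 at 72 h, 9.05 ± 0.17 at 48 h and 9.10 ± 0.14 in plusDox cells (SD, n = 4 each). Of 10 embryonic stem cell markers, 8 had parts tested at 72 h and 8 at 48 h. Of 10 markers of differentiated cells 5 were tested at 72 h and 0 at 48 h, and of 8 fibroblast markers 4 were tested at 72 h and 1 (Thy1) at 48 h. Wider lists held 6 genes of differentiated cells and 2 of fibroblasts with values at both times. Whether a gene was tested says little of its level, and the table holds no expression levels that could check the label further.

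Most parts differed little between the times. The difference had a median of -0.0010, quartiles of -0.022 and 0.019, and 5th and 95th percentiles of -0.066 and 0.060. Among the 39006 parts called at neither time (authors' adjusted p of at least 0.05), it lay between -0.107 and 0.095 in all but the outer 1% on each side. Parts called at 72 h and not at 48 h numbered 1921, of which 1108 were higher and 813 lower than in plusDox cells, but 1220 of them (63.5%) had moved by less than 0.05 in the direction of their 72 h value. These parts stood at a median size of 0.093 at 72 h and had already reached a median of 0.051 in the same direction at 48 h, in the authors' deposited table. Most new calls at 72 h were thus of parts whose value had moved little since 48 h. In all, 2395 parts (5.76%) were called at 72 h, 1394 higher (3.35%) and 1001 lower (2.41%).

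Late parts were defined by 3 conditions: an adjusted p below 0.05 at 72 h, an adjusted p of at least 0.05 at 48 h, and a difference of at least 0.25 in the direction of the 72 h value. The definition found 54 parts (0.13% of all parts) in 50 genes (0.795% of genes), 40 higher at 72 h (0.0961%) and 14 lower (0.0337%). The higher ones had a median value of 0.36 at 72 h and 0.058 at 48 h, and the lower ones -0.45 at 72 h and -0.098 at 48 h, in the authors' deposited table. Because these values chose the parts, they describe the set and test nothing. Detained introns made up 30 of the 40 higher late parts (75%) and 0 of the 14 lower ones, while they were 0.454% of all parts. Of the lower late parts, 8 were terminal exons, 2 intronic polyadenylation parts (parts ending at a poly(A) site inside an intron), 1 a first exon and 3 unclassified parts, which are mostly internal exons.

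**Figure D1:**
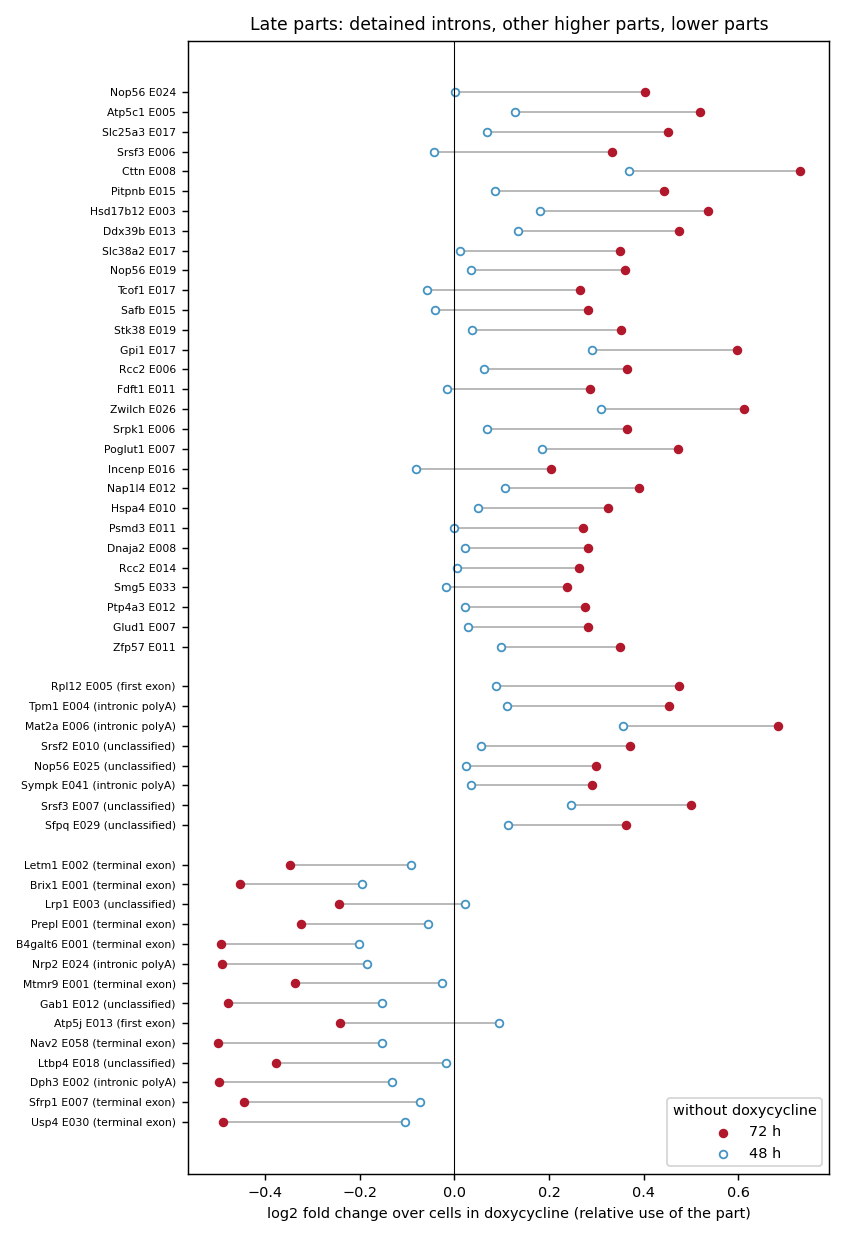
Values of 51 of the 54 late parts at 72 h (filled) and 48 h (open) without doxycycline, on the x axis as log2 fold change in relative use over cells kept in the drug, with detained introns at the top, other higher parts in the middle and lower parts at the bottom. In 21 of the 29 detained introns plotted the 48 h point lies within 0.1 of 0.

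The sequences of the parts with the largest or most closely packed late changes are shown, to show what the parts consist of. The table is on mm9, and each part was matched to GENCODE M21 on GRCm38 by gene and width alone, an intron counting as matched when it was exactly 1 base wider than the part. Such an intron was found for 99 of the 189 detained introns with values at both times and for 14 of the 30 late ones. Nop56 E024 (mm9 chr2:130104027-130104147, plus strand) had the largest difference of any late part, and its intron is short enough to show whole (GRCm38 chr2:130278291-130278412), as is that of the other late detained intron of the gene, E019 (GRCm38 chr2:130277315-130277475). Capitals mark the first and last bases of each intron, the GT and AG of the splice sites.
Nop56 E024: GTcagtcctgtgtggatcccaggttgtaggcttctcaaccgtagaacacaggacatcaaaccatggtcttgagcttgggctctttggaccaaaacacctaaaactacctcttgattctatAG
Nop56 E019: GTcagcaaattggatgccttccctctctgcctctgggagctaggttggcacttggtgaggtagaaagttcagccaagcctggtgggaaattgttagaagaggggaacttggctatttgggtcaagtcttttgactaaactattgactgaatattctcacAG

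Srsf3 held 3 adjacent parts that were called higher at 72 h, and they are shown as the ends of the first intron and the start of the exon behind it. E006 is a detained intron (829 bases in GRCm38), of which the first 60 bases (chr17:29038625-29038684) and the last 60 bases (chr17:29039394-29039453) are given, all on the plus strand, with the splice-site bases in capitals. E007 is the next exon, 456 bases wide and annotated in transcripts marked for nonsense-mediated decay. Its first 34 bases (chr17:29039454-29039487) run to an in-frame stop codon, in capitals.
Srsf3 E006 start: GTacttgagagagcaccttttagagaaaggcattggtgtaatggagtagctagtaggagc
Srsf3 E006 end: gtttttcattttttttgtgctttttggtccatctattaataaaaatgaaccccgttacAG
Srsf3 E007 start: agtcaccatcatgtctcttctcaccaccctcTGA

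Among the lower late parts, the coding exon of Gab1 that forms E012 is shown whole (90 bases, GRCm38 chr8:80776161-80776250, minus strand, no capitals), since its width is a multiple of 3 and transcripts with and without it keep the same reading frame.
Gab1 E012: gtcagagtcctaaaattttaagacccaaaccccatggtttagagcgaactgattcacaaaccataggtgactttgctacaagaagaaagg

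The higher late parts are described by the role of their gene. Roles were counted among these parts alone, after the values were seen. No share of the roles among all genes stands beside the counts, so they do not show that a role was favoured. Genes of RNA processing and the ribosome held 16 of the higher late parts, in 13 genes, of which 9 were detained introns. Nop56, a core protein of the box C/D small nucleolar ribonucleoproteins that guide RNA methylation, held 3 of them, more than any other gene. In the authors' deposited table its E024 stood at 0.40 at 72 h and 0.0020 at 48 h, with DEXSeq adjusted p of 0.0193 at 72 h and 0.998 at 48 h. The second late intron, E019, stood at 0.36 at 72 h and 0.035 at 48 h, and the exon E025, which follows E024 directly, at 0.30 at 72 h and 0.024 at 48 h, in the authors' deposited table. The other 7 parts of Nop56 with values at both times lay between -0.05 and 0.02 at 72 h and between -0.02 and 0.01 at 48 h, in the authors' deposited table. The late gain in Nop56 was thus seen in 2 introns and 1 exon, while the parts between them stayed near 0 at both times.

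Srsf3, an SR protein that regulates splicing and export, had the 3 adjacent parts printed above. E006 was at 0.33 at 72 h and -0.04 at 48 h in the authors' deposited table (DEXSeq adjusted p 0.00472 at 72 h). The exon with the early stop codon, E007, was at 0.50 at 72 h and 0.25 at 48 h (DEXSeq adjusted p 0.00485 and 0.0820 in the authors' deposited table). The detained intron behind it, E008, was at 0.33 at 72 h and 0.096 at 48 h in the authors' deposited table and, with a difference of 0.24, stayed short of the late definition. The exons on either side of this block did not share the move. E002 differed by 0.0090 and E013 by -0.01, and the first exon E001, called at both times, stood at 0.050 at 72 h and 0.075 at 48 h in the authors' deposited table.

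**Figure D2:**
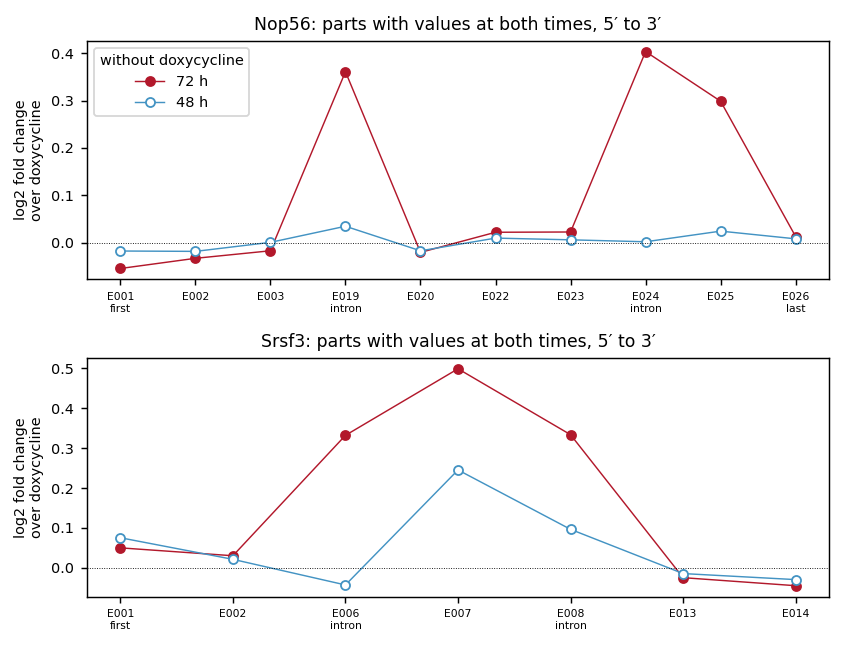
Values of each part of Nop56 (top) and Srsf3 (bottom) with values at both times, ordered 5′ to 3′ along the x axis, at 72 h (filled) and 48 h (open), as log2 fold change over cells in doxycycline. In Nop56 the 48 h line stays near 0 and the 72 h line leaves it at E019, E024 and E025, and in Srsf3 the lines part at E006, E007 and E008.

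Other factors of splicing and export gained late parts. Srsf2, a second SR protein, had an unclassified part (E010, 157 bases) at 0.37 at 72 h and 0.055 at 48 h in the authors' deposited table, with a DEXSeq adjusted p of 1.48e-09 at 72 h. Its other 5 parts differed by between -0.02 and -0.0015. Srpk1, the kinase that phosphorylates SR proteins, had its detained intron at 0.36 at 72 h and 0.068 at 48 h, and Ddx39b, the RNA helicase of the TREX export complex, had its intron E013 at 0.47 at 72 h and 0.13 at 48 h, in the authors' deposited table. Ddx39b had the lowest adjusted p of the late detained introns, 1.18e-10 by DEXSeq in the authors' deposited table. The detained intron of Smg5, a nonsense-mediated decay factor, moved to 0.24 at 72 h, against -0.02 at 48 h, in the authors' deposited table. An intronic polyadenylation part of Sympk, the scaffold of the cleavage and polyadenylation machinery, was at 0.29 at 72 h and 0.035 at 48 h in the authors' deposited table. Safb, a nuclear matrix and RNA-binding protein, and Tcof1, which acts in ribosomal RNA transcription, had introns at 0.28 and 0.26 at 72 h, against values slightly below 0 at 48 h (-0.04 and -0.06), in the authors' deposited table. An unclassified part of Sfpq, a splicing factor of paraspeckles, stood at 0.36 at 72 h and 0.11 at 48 h in the authors' deposited table.

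Rpl12, a protein of the large ribosomal subunit, had the largest late difference outside detained introns: its first exon E005 was at 0.47 at 72 h and 0.088 at 48 h in the authors' deposited table (DEXSeq adjusted p 0.0299 at 72 h). Its detained intron E013 had an even larger difference, 0.50, with values of 0.42 at 72 h and -0.09 at 48 h, but was not called (DEXSeq adjusted p 0.0657 at 72 h in the authors' deposited table). Ribosomal protein genes have near-identical copies elsewhere in the genome, and how reads that fit several copies were counted is not stated in any source used here, so these values are uncertain.

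Metabolic and transport genes held 10 late parts, 9 of them detained introns. Atp5c1, the gamma subunit of the mitochondrial ATP synthase, had its intron at 0.52 at 72 h and 0.13 at 48 h in the authors' deposited table (DEXSeq adjusted p 7.33e-08 at 72 h). The introns of Slc25a3, the mitochondrial phosphate carrier, and of Slc38a2, a neutral amino acid transporter, stood at 0.45 and 0.35 at 72 h and at 0.069 and 0.011 at 48 h in the authors' deposited table. Those of Hsd17b12, which acts in fatty acid elongation, and Pitpnb, a phosphatidylinositol transfer protein, were at 0.54 and 0.44 at 72 h and at 0.18 and 0.087 at 48 h in the authors' deposited table. Both introns are long for the set, 9795 and 8801 bases, against 121 for Nop56 E024, so late parts were found among long and short introns. Gpi1, a glycolytic enzyme, and Mat2a, which makes S-adenosylmethionine and is known for an intron whose retention responds to that product, were already high without a call at 48 h: Gpi1 E017 was at 0.60 at 72 h and 0.29 at 48 h, and the intronic polyadenylation part E006 of Mat2a at 0.68 at 72 h and 0.36 at 48 h, in the authors' deposited table. Introns of the cholesterol synthesis enzyme Fdft1, the glutamate dehydrogenase Glud1 and the Notch-modifying glycosyltransferase Poglut1 differed by 0.30, 0.25 and 0.29.

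Genes of cell division and chromatin held 7 late parts in 6 genes, and all 7 were detained introns. Rcc2, which acts in mitotic chromosome segregation, had 2: E006 at 0.36 at 72 h and 0.062 at 48 h, and E014 at 0.26 at 72 h and 0.0060 at 48 h, in the authors' deposited table. The intron of Incenp, the scaffold of the chromosomal passenger complex, was at 0.20 at 72 h and -0.08 at 48 h, the lowest 48 h value among the late introns, and that of the kinetochore protein Zwilch at 0.61 at 72 h and 0.31 at 48 h, in the authors' deposited table. The kinase Stk38, the histone chaperone Nap1l4 and the imprinting factor Zfp57 had introns that differed by 0.31, 0.28 and 0.25. In protein folding and breakdown, introns of the chaperone genes Hspa4 and Dnaja2 and of the proteasome subunit gene Psmd3 differed by 0.27, 0.26 and 0.27, with 48 h values of 0.050, 0.021 and -0.00068 in the authors' deposited table. Of the 4 genes of the cytoskeleton and signalling, Cttn, the actin-binding cortactin, had the highest 72 h value of all late introns, 0.73, but also the highest 48 h value, 0.37 (DEXSeq adjusted p 0.105), in the authors' deposited table. Tpm1, a tropomyosin, had an intronic polyadenylation part at 0.45 at 72 h and 0.11 at 48 h in the authors' deposited table. The grouping by role was made after the values were seen.

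Over all 189 detained introns with values at both times, in 179 genes, the difference was above 0 in 157 (83.1%), against 48.5% of all parts. At least 0.1 was reached by 111 of them (58.7%, against 1.21% of all parts), and at most -0.1 by 5 (2.65%, against 1.61%). The quartiles of the difference were 0.024 and 0.217. The 121 introns called at neither time also had a median of 0.084, with 94 above 0 (77.7%). All 39006 parts called at neither time had a median of -0.0012. The shift was thus present among introns without a call, of which 10 had a difference of at least 0.25. At 72 h, 63 of the 189 introns were called higher (33.3%, against 3.35% of all parts) and 4 lower. Calls of higher use at 72 h that were not made at 48 h numbered 60, of which 59 had a difference above 0. Those outside the late set, 30 in all, had differences from -0.02 to 0.24 with a median of 0.19. Among them were introns of Pcid2 (0.24), a subunit of the TREX-2 export complex, of Rbm5 (0.23), a splicing regulator of apoptosis genes, of Srrm2 (0.22), a scaffold of nuclear speckles, of Hjurp (0.20), the chaperone of the centromeric histone, and of Ogt (0.19), the O-GlcNAc transferase.

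**Figure D3:**
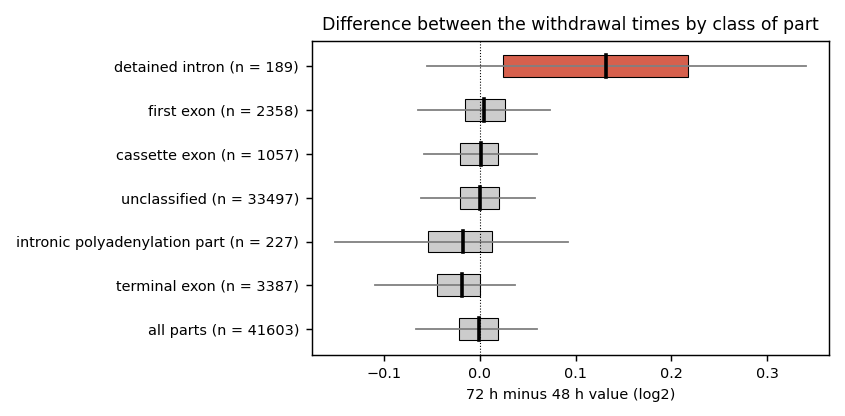
Difference between the times (72 h minus 48 h value, log2) by class of part, as median (bar), quartiles (box) and 5th to 95th percentiles (line). The detained introns (red) lie to the right of 0 from their lower quartile of 0.024 upward, and the terminal exons lie mostly to the left.

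The size of the intron and its place in the gene made little difference to the median. In 4 equal groups by width, from 73 to 19463 bases, the median differences of detained introns were 0.13, 0.14, 0.14 and 0.12. The late introns in these groups, from short to long, numbered 9, 10, 5 and 6. Introns among the earlier parts of their gene had a median of 0.149 (80 introns) and those among the later parts 0.123 (109 introns). The 169 introns that were the only one of their gene with values had a median of 0.130, and the 20 introns that shared 10 genes had 0.19. Of these 10 genes, 8 had both introns above 0: Gpi1, Mdm4, Nop56, Rcc2, Slc38a10, Smg5, Srsf3 and Tada2a. In Aplp1 both were below 0 (-0.11 and -0.0062), and in Pkm2, the pyruvate kinase gene, both were near 0 (0.00057 and -0.0076). Introns of a gene are not independent of each other, since each is measured against the same other parts.

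A minority of detained introns went the other way. The lowest differences were those of Tomm34 (-0.23), Clstn3 (-0.18), Hnrnpul1 (-0.16), Luc7l3 (-0.13) and Aplp1 (-0.11). In Tomm34, a cochaperone of mitochondrial import, the 48 h value was the raised one, at -0.0092 at 72 h and 0.22 at 48 h in the authors' deposited table, and neither was called. Luc7l3, a splice-site recognition factor, was the only one of these 5 that was called: its intron E008 stood at -0.23 at 72 h and -0.11 at 48 h in the authors' deposited table (DEXSeq adjusted p 0.00997 at 72 h). The terminal exon of the same gene, the next part listed 3′ of that intron, differed by -0.17. It stood at -0.26 at 72 h and -0.08 at 48 h in the authors' deposited table.

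Most parts listed beside the detained introns did not move with them. A neighbour here is the next part listed for the gene in 5′ to 3′ order, and it need not touch the intron. Over 128 pairs of a detained intron and its 3′ neighbour, the median difference was 0.131 in the intron and -0.0055 in the neighbour. The intron had the larger one in 110 (85.9%). Over 120 pairs with the 5′ neighbour, the medians were 0.129 in the intron and -0.00057 in the neighbour, with the intron larger in 93 (77.5%). For the late introns the corresponding parts had medians of -0.0045 (24 parts, 3′) and -0.0037 (20 parts, 5′), the introns themselves having been chosen for their difference. Rises of at least 0.1 were seen in 4 of the 128 neighbours on the 3′ side and 8 of the 120 on the 5′ side. Both are larger shares than the 1.21% of all parts. They included E025 of Nop56, E007 of Srsf3, which lay between 2 detained introns and was counted on both sides, and both neighbours of the Zfp57 intron E011 (0.19 on the 5′ side and 0.17 on the 3′ side). In the opposite direction, the part 3′ of a detained intron differed by -0.17 in Luc7l3 and -0.14 in Pvrl2. The part 5′ of a detained intron of Mdm4, the gene of a p53 inhibitor, differed by -0.18. This 108-base part (E030) stood at -0.16 at 72 h and 0.014 at 48 h in the authors' deposited table and was called lower at 72 h alone (DEXSeq adjusted p 0.0181). The detained intron listed next to it, E019, stood at 0.31 at 72 h and 0.15 at 48 h in the authors' deposited table. These parts do not touch: on mm9, E019 ends at position 134905559 and E030 starts at 134915354.

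**Figure D4:**
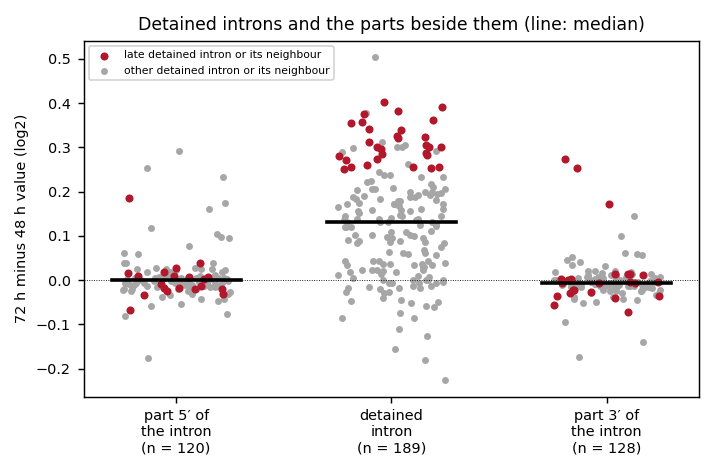
Difference between the times (log2, y axis) for each detained intron with values at both times (middle) and for the parts listed next to it. The 5′ and 3′ neighbours need not touch the intron. Late introns and their neighbours are in red and medians are bars. The introns centre on 0.13 and their neighbours close to 0, apart from a few neighbours above 0.1 or below -0.1.

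Only a small share of detained introns could be followed across the times: 189 of 2777 in the table (6.81%) had a 48 h value, and 2420 had a 72 h value alone. The introns with a 72 h value alone had a median of 0.18 at 72 h, close to the 0.17 of the introns with both values, and 322 of them (13.3%, against 1.67% of all parts with a 72 h value alone) were called higher and 9 lower, in the authors' deposited table. For those 322 the table gives no 48 h value, so whether they were late is unknown. Cyclin K itself, Ccnk, is an example: its detained intron E013 was at 0.38 at 72 h with no 48 h value in the authors' deposited table, while its parts with both values differed by -0.06 to 0.0042. Cdk13 had no part with a 48 h value, so the use of its parts could not be compared between the times. Relative use would in any case not show the level of Cdk13. The parts of its closest relative Cdk12 differed by -0.05 to 0.073. Its E001 stood at 0.103 at 72 h and 0.113 at 48 h in the authors' deposited table and was called at 48 h (DEXSeq adjusted p 0.0276) but not at 72 h (0.104), and no other part of Cdk12 was called at either time.

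Terminal exons stood lower at 72 h than at 48 h, by small steps. The difference was below 0 in 2531 of 3387 (74.7%, against 51.5% of all parts), and 206 of them (6.08%, against 1.61%) reached -0.1, while 26 reached 0.1 (0.768%, against 1.21%). Over 2357 genes with values for both, the terminal exon had a median of -0.017 and the part listed just before it -0.0024. The exon was the lower one in 1606 (68.1%). The step was larger in longer genes: in 4 equal groups by the span of the gene's parts, from short to long, the median differences were -0.010, -0.016, -0.023 and -0.030, and 17, 36, 57 and 96 exons reached -0.1. By the exon's own width the 4 medians were -0.0096, -0.020, -0.022 and -0.023, a smaller spread.

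The 8 late terminal exons that were lower at 72 h included Usp4, a deubiquitinase, with the largest late fall in use of any part: -0.49 at 72 h and -0.10 at 48 h in the authors' deposited table (DEXSeq adjusted p 2.02e-07 at 72 h). Nav2, a neuron navigator protein, had the lowest adjusted p of the late parts, 1.37e-17 by DEXSeq in the authors' deposited table, with its terminal exon at -0.50 at 72 h and -0.15 at 48 h. The last exon of Sfrp1, a secreted Wnt antagonist, stood at -0.44 at 72 h and -0.07 at 48 h, and that of Mtmr9, a myotubularin-family protein, at -0.34 at 72 h and -0.03 at 48 h, in the authors' deposited table. B4galt6, which makes lactosylceramide, Prepl, a prolyl endopeptidase-like protein, the ribosome biogenesis factor Brix1 and the mitochondrial protein Letm1 completed these 8, with differences of -0.29, -0.27, -0.26 and -0.26. In B4galt6 the median of the other parts was 0.061 higher at 72 h, and in Brix1 0.051 higher. In a relative measure the other parts go up when 1 part goes down.

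The remaining lower late parts were of several kinds. Intronic polyadenylation parts of Dph3, of the diphthamide pathway, and of Nrp2, a receptor for semaphorins and VEGF, stood at -0.496 and -0.492 at 72 h and at -0.13 and -0.18 at 48 h in the authors' deposited table. In Nrp2 this part was the most 3′ part of the gene, and the median of its other 11 parts was 0.101 higher at 72 h. Gab1, an adaptor of receptor tyrosine kinases, had its 90-base exon E012, printed above, at -0.48 at 72 h and -0.15 at 48 h in the authors' deposited table (DEXSeq adjusted p 2.01e-07 at 72 h), while a detained intron of the same gene, E008, was higher at 72 h by 0.12. Ltbp4, which binds latent TGF-beta, and Lrp1, a large endocytic receptor, had internal parts at -0.38 and -0.24 at 72 h and at -0.02 and 0.021 at 48 h, in the authors' deposited table. Lrp1 had only 1 other part with values at both times, and it differed by -0.15. The first exon of Atp5j, a coupling factor of the ATP synthase, was at -0.24 at 72 h and 0.094 at 48 h in the authors' deposited table. Over all 227 intronic polyadenylation parts, 146 differences were below 0 (64.3%, against 51.5% of all parts). Of these parts 23 reached -0.1 (10.1%, against 1.61%) and 11 reached 0.1 (4.85%, against 1.21%), so this class held moves of both kinds.

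By their medians, first exons, cassette exons and internal parts showed almost no further step. At least 0.1 was nevertheless reached by 60 first exons (2.54%, against 1.21% of all parts), and at most -0.1 by 37 (1.57%, against 1.61%). Among cassette exons 11 reached 0.1 (1.04%), and among unclassified parts 271 (0.809%). The median difference was 0.0046 for 2358 first exons, 0.00078 for 1057 cassette exons and 1.2e-05 for 33497 unclassified parts, and no cassette exon was late. A first exon had a larger difference than the next part of its gene in 739 of 1438 genes (51.4%). Along the gene the difference still ran from higher to lower. In 10 groups by a part's place in the 5′ to 3′ order of its gene, the medians were 0.0049, 0.0046, 0.0045, 0.0038, 0.0020, -0.00034, -0.0025, -0.0046, -0.0090 and -0.021. Genes with fewer than 10 parts skip some groups and never reach the last, so the groups hold different genes. In genes with at least 10 parts the first group had a median of 0.0060 and the last -0.021. Unclassified parts alone ran from 0.0066 in the first group to -0.012 in the last. Some in the first group are the 5′-most part of their gene, as in Ccnk and Cdk12, and so not away from first exons. From the second group to the ninth, the medians of unclassified parts ran from 0.0048 to -0.0071.

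**Figure D5:**
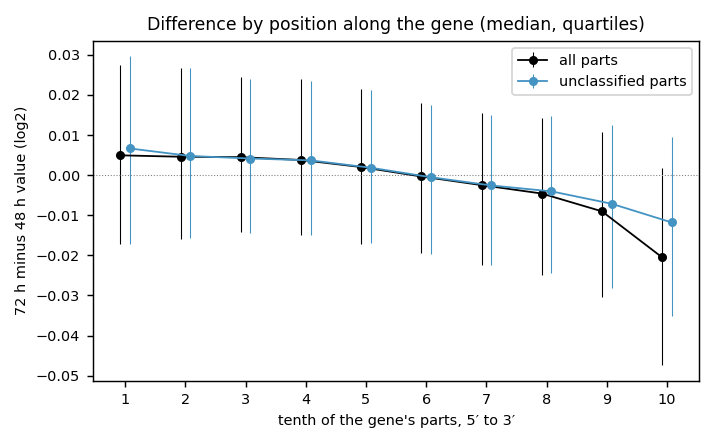
Median difference between the times (72 h minus 48 h value, log2) in 10 groups by a part's place in the 5′ to 3′ order of its gene, with quartiles as lines, for all parts (black) and unclassified parts (blue). Medians cross 0 between the fifth and the sixth group and are lowest in the last.

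Most parts called at 48 h differed little by 72 h, but a larger share of them than of all parts differed by at least 0.1. Of 676 parts called at 48 h (1.62% of all parts), 408 higher and 268 lower, 620 differed by less than 0.1, 45 went further by at least 0.1 and 11 moved back toward or past 0 by as much. The 56 that differed by at least 0.1 either way were 8.28% of these parts, against 2.82% of all parts. The median difference was 0.0016 for those higher at 48 h and -0.0083 for those lower. Steps of at least 0.25 were made by 6 parts. Of these, 4 lay in the long noncoding RNAs 1500012F01Rik (3 parts) and 2410006H16Rik: 1500012F01Rik E007 stood at -0.87 at 72 h and -0.57 at 48 h, and 2410006H16Rik E008 at -0.86 at 72 h and -0.40 at 48 h, in the authors' deposited table. The others were the terminal exon of the cofilin phosphatase gene Ssh1, at -0.64 at 72 h and -0.34 at 48 h, and the first exon of the nucleolar protein gene Nol12, at 0.48 at 72 h and 0.22 at 48 h, in the authors' deposited table.

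Among the 6 parts that moved furthest back, most had no call left at 72 h. Parts of the kinase gene Lck (E017), the diacylglycerol kinase gene Dgkz, the autophagy regulator Ambra1 and the guanine nucleotide exchange factor gene Arhgef1 stood at -0.02, 0.049, 0.051 and 0.056 at 72 h and at -0.18, 0.20, 0.19 and 0.18 at 48 h in the authors' deposited table. The 5′-most part of Coil, whose product coilin marks Cajal bodies, is classed as a detained intron and stayed lower, at -0.21 at 72 h and -0.36 at 48 h in the authors' deposited table. The first exon of Rnasek, the ribonuclease kappa gene, was the only one of the 6 with calls in opposite directions, at -0.06 at 72 h and 0.078 at 48 h in the authors' deposited table (DEXSeq adjusted p 0.000897 and 0.00176). Detained introns called at 48 h numbered 5. H2afy, the macroH2A1 gene, and Mdm4 E016 went on, by 0.19 and 0.13, while Slc9a8 differed by 0.058 and Lck E012 by -0.05, and Coil moved back.

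Gene lists were read against 0.795% of genes with a late part and 19.5% of genes with a new call, a part called at 72 h and not at 48 h. A gene with more parts has more occasions for a call, and the lists differ in parts per gene, so these shares are a rough guide. At 0.795%, a list of these sizes with no late gene is no departure from the share of all genes. Of 19 SR-type splicing factor genes with values, 2 had late parts (Srsf2 and Srsf3) and 7 had a new call. Their 5 detained introns were all above 0, with a median of 0.22, but so were 83.1% of all 189 detained introns, with a median of 0.13. Unclassified parts of Srrm2 (E033) and Srsf5 differed by 0.23 and 0.16. In all, 14 of the 140 parts of these genes were higher by at least 0.1, against 1.21% of all parts, and 1 was lower by as much. Of 22 genes of export, the exon junction complex and nonsense-mediated decay, 2 had late parts (Ddx39b and Smg5) and 9 a new call. Their 5 detained introns were also all above 0, with a median of 0.26, against the same 83.1% of the class. Srpk1 was the only late gene of 6 splicing kinases and Sympk of 20 cleavage and polyadenylation genes. No late part was found in 23 hnRNP genes, 22 genes of RBM, LUC7-like and U2AF factors, 40 core spliceosome genes or 27 genes of the nuclear exosome and its adaptors. New calls without a late part were nevertheless made in 9, 10, 18 and 7 of these genes, among them an unclassified part of Hnrnpl (0.22) and an unclassified part of the ubiquitin ligase and spliceosome factor Prpf19 (0.15). Detained introns above 0 numbered 4 of 5 in the hnRNP list and 1 of 3 in the RBM, LUC7-like and U2AF list. In the core spliceosome list they numbered 1 of 3 and in the exosome list 1 of 1. In the exosome list, Zc3h18, an adaptor of the cap-binding complex, had a part that differed by -0.16 and was called lower at 72 h alone, at -0.28 at 72 h and -0.12 at 48 h in the authors' deposited table.

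In the other lists, late genes were as follows. No gene was late among 41 of RNA polymerase II kinases and elongation (10 with a new call), 34 of DNA replication (11), 31 of homologous recombination and the checkpoint (4), 38 chromatin regulators (21), 21 pluripotency regulators (6) and 17 p53 targets (4). Recombination and checkpoint genes had the lowest share of new calls of these 6 lists, 12.9%, and chromatin regulators the highest, 55.3%. Chromatin regulators also had more parts per gene, with 482 parts in 38 genes against 302 in 31. Of the 302 parts of the recombination and checkpoint genes, 16 were nevertheless lower by at least 0.1 and 5 higher, against 1.61% and 1.21% of all parts, among them an unclassified part of the ubiquitin ligase gene Rnf8 (-0.18) and the terminal exon of Mdc1 (-0.10), both called lower at 72 h alone. Within chromatin regulators, terminal exons of Chd9, Chd2 and Mll1 differed by -0.20, -0.15 and -0.14, and the first exon of Uhrf1, a DNA methylation maintenance factor, by 0.13. The terminal exon of the pluripotency factor Sall4 stood at -0.20 at 72 h and -0.13 at 48 h in the authors' deposited table and was called at 72 h alone. Rpl12 was the only late gene of 71 ribosomal protein genes (33 with a new call), and Gpi1 and Mat2a were the late ones of 29 metabolic enzymes (13). Of the 6 detained introns of the metabolic enzymes, 4 were above 0. Of 6 genes of differentiated cells and 2 of fibroblasts with values, none was late.

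The edge of the definition cut through similar parts. Just inside were Sfpq E029 (0.25), Zfp57 E011 (0.251) and Srsf3 E007 (0.254), and just outside were Lrrc58 E001 (0.248), Sdf4 E019 (0.248) and Znhit6 E006 (0.247), all called at 72 h and not at 48 h. The median difference of the other parts of the gene was within 0.05 of 0 for 48 of the 54 late parts, with a range of -0.15 to 0.101. A median near 0 does not show that the late part stood alone. Nop56 held 3 late parts and Rcc2 and Srsf3 held 2 each, and in Rpl12 another part differed by 0.50.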

How the data were processed

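Polyadenylated RNA of 12 libraries was quantified by the authors in gene parts with DEXSeq, per the file headers. Per the submitters' processing notes, STAR 2.4.1d and the build mm9 were used. How parts were counted, whether by strand, from which annotation, with which DEXSeq version and with any shrinkage or clone term is not given in the sources used here. Deposited was 1 table that holds the authors' log2 fold changes and FDR-adjusted p-values at 48 h and 72 h over cells in doxycycline, per the file headers, and 0 columns of values per library. Depth per library is therefore unknown, and the planned count test could not be run. A 48 h log2 value was given only where an adjusted p was (42340 parts, of which 737 lacked a log2 value), and 63512 parts had a 72 h value alone.

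The 72 h minus 48 h difference was computed per part (Python 3.11.15, pandas 2.3.3, numpy 2.4.6, scipy 1.17.1) and described by counts and medians beside all 41603 parts. The selection was tested on simulated data. A part was called at an adjusted p below 0.05. Parts were ordered by strand, and position used genes with at least 3 parts. Gene names that a spreadsheet had turned into dates, 22 in all, were restored from the identifiers. List genes (595 entries in 18 lists) were matched by symbol (537) or by older name in a RefSeq table of GRCm38.p6 (21). Members, lists and rules were chosen with earlier results of these data known. Named genes were the 12 largest late rises and 12 largest late falls, the 10 largest called detained introns, up to 4 genes per list, the 6 parts moving furthest back, the genes with most late parts, and Cdk13, Cdk12 and Ccnk. The rule for parts with no adjusted p at 48 h found none. Other named parts were chosen after their values were seen. A few of the parts that the rule selects are not reported here.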

Additional observations from a re-analysis of the deposited data

How the results depend on the processing

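No paired analysis was possible because the table holds no values per library; for the same reason fits with a replicate left out or with the replicate number as a block were not run, and no difference has an error. At an adjusted p below 0.01 at 72 h, higher late parts numbered 25 and late detained introns 18, against 40 and 30. With a difference of at least 0.1, late parts numbered 285, of which 157 were higher, 128 lower and 54 higher detained introns; with one of at least 0.5 there were 0 in all, 0 higher, 0 lower and 0 detained introns. Asking for an adjusted p of at least 0.5 at 48 h left 7 lower late parts, against 14. The median difference of terminal exons, -0.01868, became -0.02052 with parts of at least 50 bases and -0.02015 in genes with at least 5 parts. That of unclassified parts, 1.215e-05, became 0.001102 after the other parts of the gene were subtracted. With unclassified parts alone, the first group by position moved to 0.006645 from 0.004935 and the last to -0.01181 from -0.02052. These were 16 values that moved. Another 43 stayed close, but some of these could not have differed. Asking for no adjusted p at 48 h, or only for log2 values, left the same parts. Every detained intron was wider than 50 bases, and only genes with at least 10 parts reach the last group by position. Among the 43 the median of unclassified parts, next to 0, changed sign, to -2.377e-05 in genes with at least 5 parts.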

Other observations

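Some differences of at least 0.25 lay outside the late definition because the part was called at neither time. The largest of any part was that of the first exon E021 of Eif5a, a translation factor, which stood at 0.15 at 72 h and -0.45 at 48 h in the authors' deposited table (DEXSeq adjusted p 0.917 and 0.652), a difference of 0.60. The first exon E007 of Tmsb10, an actin-binding peptide, differed by 0.39 and an unclassified part of 40 bases in Ssr2, a subunit of the translocon-associated complex, by -0.45, also with no call. Terminal exons of Banp and Reep5 each differed by -0.43 with no call. Uncalled detained introns with such a difference, 10 in all, lay in Cnot10, Crlf3, Mtf2, Nxf1, Rpl12, Ska1, Sugp1, Topbp1, Uba2 and Usp28. Nxf1, the main mRNA export receptor, had its intron at 0.21 at 72 h and -0.08 at 48 h, and Topbp1, which activates the ATR checkpoint kinase, at 0.33 at 72 h and 0.016 at 48 h, in the authors' deposited table. An unclassified part of the SR protein gene Srsf7 (E015, 287 bases) stood at 0.33 at 72 h and 0.011 at 48 h in the authors' deposited table, uncalled.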
